A study of Bos taurus with 138 samples.

Results

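The genes described here encode the Sm proteins, the proteins specific to the U1 and U2 small nuclear ribonucleoproteins (snRNPs), and the SF3A and SF3B complexes. They also encode U2AF, the PRPF proteins, the LSm proteins and the SR proteins. Most are proteins of the spliceosome. Some, such as LSM1, LSM10 and LSM11, belong to other complexes, and LSM12 was taken for its symbol and not for a place in the spliceosome. The name spliceosome genes covers them too. All were chosen by symbol alone, as those that begin with SNRP, SF3A, SF3B, PRPF, U2AF or SRSF, or with LSM and a digit. LSM14A and LSM14B were left out. The rule found 59 of the 16706 genes in the deposited table, and all 59 had enough counts to be tested. SRSF8 is not analysed here. The study separated lysates of bovine oocytes and embryos on sucrose gradients, in which RNA that carries more ribosomes moves further, and sequenced 10 fractions (F1 to F10) of each gradient. Libraries came from germinal vesicle (GV) oocytes, metaphase II (MII) oocytes and 2-cell, 8-cell, morula and blastocyst embryos, with 2 gradients (A and B) and 3 transcriptomes of unfractionated oocytes or embryos (A, B and C) at each of these 6 stages. The labels name no treatment or genetic change. Oocytes came from slaughterhouse ovaries, MII oocytes and embryos were made in vitro with semen of a single bull, every library is a pool of oocytes or embryos stripped of their zona, and cycloheximide was added before lysis to hold ribosomes on the mRNA. A pool mixes individuals, so that the p-values below measure the spread between pools, and fewer cells with a transcript cannot be told apart from less transcript per cell.

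The spliceosome removes introns from pre-mRNA in the nucleus. Each snRNP holds a small nuclear RNA inside a ring of Sm proteins, U1 recognises the 5′ splice site, U2AF and U2 with SF3A and SF3B recognise the 3′ end of the intron and its branch point, and the U4/U6.U5 tri-snRNP then brings in the parts that carry out the cut. SR proteins bind exons and guide splice-site choice, and several also act on mRNA export and translation. A growing oocyte stores mRNA for later use, full-grown oocytes and the first cleavage stages are nearly silent in transcription, and in cattle the major activation of the embryonic genome falls around the 8-cell stage.

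Fraction libraries held 1229382 to 17342859 counts, and the transcriptomes held 3269386 to 11812567. Counts of F8, F9 and F10, the polysome-occupied mRNAs, were summed within each gradient into a polysome pool of 22543737 to 39380638 counts, and those of F3 to F5 into a monosome pool of 16042805 to 42183098 counts. Levels are CPM, counts scaled to the library total and corrected by TMM factors. Library A of the 8-cell transcriptome stood apart in fibroblast markers. The summed level of all 6 listed genes (COL1A1, COL1A2, COL3A1, DCN, LUM and POSTN) was 10659, 1888 and 1478 CPM in 8-cell transcriptomes A, B and C and 257 and 382 CPM in the 8-cell polysome pools, and at most 131 CPM in any library of another stage. Their part in the 8-cell results was not tested, and the counts without that library are given beside those results. Markers of the oocyte (8 genes) summed to 21359, 18254 and 19600.3 CPM in GV transcriptomes and to 317, 407 and 635 CPM in 8-cell transcriptomes, and trophectoderm markers (5 genes) to 5088, 5838 and 5594 CPM in blastocyst transcriptomes. Cumulus markers (7 of 8 in the test) summed to between 0.578 and 389 CPM in every library and were highest in MII transcriptomes. They held 293, 389 and 368 CPM there, beside 31.5, 40.8 and 43.0 at GV and 40.5 and 87.3 in MII polysome pools. The 8-cell transcriptomes held 254, 113 and 136 CPM. Cumulus genes differed, and the MII sum was mostly HAS2 (169, 183.5 and 187 CPM) and TNFAIP6 (82.0, 147 and 144 CPM). CYP11A1 had 12.9, 21.9 and 13.2 CPM in MII transcriptomes and 146, 51.1 and 61.3 CPM in 8-cell transcriptomes, and PTX3 and FSHR were also higher at 8-cell. The part of cumulus markers in the MII and 8-cell results was not tested. The sum of inner cell mass markers (4 of 5 in the test) was highest in morulae, at 518, 464 and 398 CPM in the transcriptomes. Most of it was POU5F1 (431, 389 and 301 CPM). NANOG went the other way, with 126, 220 and 205 CPM in 8-cell transcriptomes and 47.3, 45.1 and 76.0 CPM in those of morulae.

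The 59 genes together held about 1% of the counts in transcriptomes of oocytes and 2-cell embryos, more at the 8-cell and morula stages, and about 1% again in blastocysts. Their share of the transcriptome was 0.937, 1.01 and 1.07% at GV, 1.11, 0.984 and 0.900% at MII, 0.859, 0.898 and 1.08% at 2-cell, 1.37, 1.80 and 1.66% at 8-cell, 1.71, 1.65 and 1.77% at morula and 1.07, 0.862 and 0.939% at blastocyst. All 6 transcriptomes of the 8-cell and morula stages lay above all 12 of the other stages. In the polysome pools the share was 0.566 and 0.552% at GV, 0.517 and 0.583% at MII, 0.537 and 0.522% at 2-cell, 1.37 and 1.26% at 8-cell, 1.49 and 0.958% at morula and 0.907 and 0.918% at blastocyst. The polysome share thus lay below every transcriptome of its stage at GV, MII, 2-cell and morula, and the ranges overlapped at 8-cell and blastocyst. A share is relative to the other transcripts in a library and is not an amount of RNA.

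**Figure D1:**
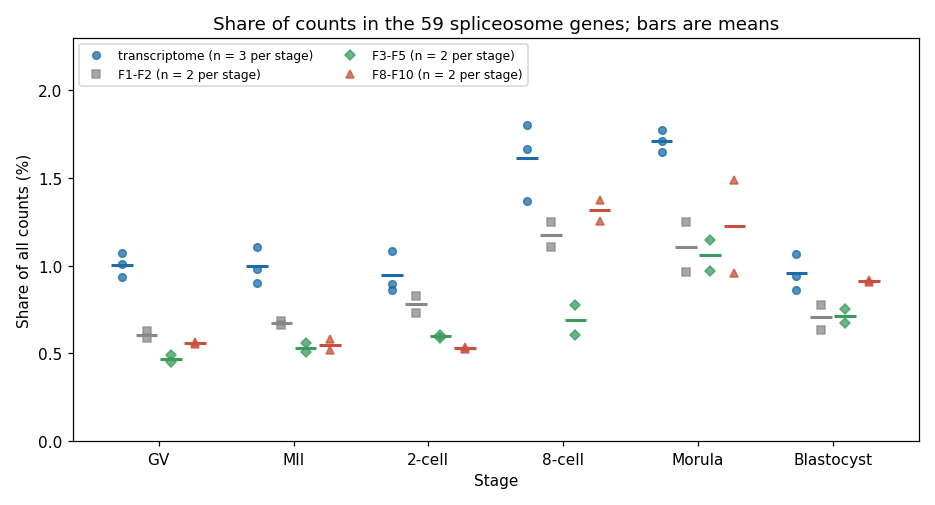
Share of all counts (%) held by the 59 spliceosome genes at each stage, with 1 point per library for the transcriptomes (n = 3) and for the pools of F1 and F2, F3 to F5 and F8 to F10 (n = 2 gradients each), and bars for the means. The transcriptome share was highest at 8-cell and morula (means 1.61 and 1.71%), and the F8 to F10 share rose from a mean of 0.529% at 2-cell to 1.32% at 8-cell.

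Changes in time were tested between consecutive stages, separately in the transcriptomes and in the polysome pools, and a gene was called when its adjusted p was under 0.05 and its fold change above 2. Levels are relative to the other transcripts in a library, so a rise or fall is not shown to be one in the amount of mRNA. The step from 2-cell to 8-cell held more calls than any other step, among the 59 genes as among all genes. In the transcriptomes 27 of the 59 genes rose and 10 fell between 2-cell and 8-cell, beside 26.6% higher and 23.5% lower among all 14612 genes tested, and the median log2 change was 0.68 over the 59 genes and 0.03 over all genes. In the polysome pools 29 rose and 5 fell, beside 21% and 25.2%, with medians of 1.10 and -0.26. The 5 falls became 3 without 2-cell polysome B or without 8-cell polysome A. Without 8-cell transcriptome A, the library high in fibroblast markers, 28 rose and 8 fell in the transcriptomes.

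By count, SR proteins had more rises than any other role at that step. Of 11, 7 rose and none fell in both the transcriptomes and the polysome pools, where 26.6% and 21% of all genes rose. Roles differ in size. In the pools 3 of 4 U1 and U2 proteins and 5 of 8 Sm ring genes also rose, with none fallen. In the transcriptomes 2 of 3 U2AF genes rose and 1 fell. SRSF3, an SR protein that also works as an adaptor for mRNA export, had 37.9, 37.3 and 34.1 CPM in the 2-cell transcriptomes and 1422, 1368 and 1235 CPM in the 8-cell transcriptomes, a rise of 36.8-fold (log2 change 5.20 ± 0.32, adjusted p = 1.41e-11; errors of log2 values are standard errors throughout). Its polysome pools went from 7.62 and 10.2 CPM to 423 and 396 CPM (log2 change 5.52 ± 0.40, adjusted p = 7.99e-10). None of the 8-cell libraries overlapped those of 2-cell embryos. SRSF6 followed with 15.5, 16.5 and 7.9 CPM at 2-cell and 296, 177 and 174 CPM at 8-cell (log2 change 4.02 ± 0.34, adjusted p = 1.46e-09), and in the polysome pools with 9.37 and 4.98 and then 112 and 105 CPM (log2 change 3.91 ± 0.41, adjusted p = 1.07e-07). SRSF2, which recognises exonic enhancers, rose from 21.8, 23.3 and 21.8 CPM to 254, 274 and 225 CPM in the transcriptomes (log2 change 3.49 ± 0.23, adjusted p = 3.12e-11) and less in the polysome pools, from 67 and 55.9 to 272 and 243 CPM (log2 change 2.07 ± 0.26, adjusted p = 1.22e-06). SRSF1, the SR protein first known as ASF/SF2, rose in the transcriptomes (log2 change 1.76 ± 0.31, adjusted p = 6.35e-05), SRSF5 in both (1.75 and 1.88 log2), and SRSF7, SRSF10 and SRSF11 rose in 1 or both. SRSF4, SRSF9 and SRSF12 were called in neither.

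In the Sm ring, SNRPB, SNRPN and SNRPD2 rose in the transcriptomes and SNRPF fell. SNRPB encodes the SmB/B′ subunit, and its CPM of 59, 38.1 and 50.2 at 2-cell became 719, 993 and 835 at 8-cell, with polysome pools of 102 and 83.1 and then 1943 and 2321 (log2 change 4.11 ± 0.26, adjusted p = 2.11e-11 in the transcriptomes and log2 change 4.53 ± 0.33, adjusted p = 7.99e-10 in the pools). SNRPN, the SmN paralog of SNRPB, rose by 11-fold and 43.5-fold, from 8.14, 11.3 and 9.85 to 127, 95 and 101 CPM in the transcriptomes and from 5.14 and 2.21 to 149 and 172 CPM in the pools, a log2 change of 5.44 (6.18 without 2-cell polysome A). The coding sequences of SNRPB and SNRPN are close, and reads could have been split between them, so their separate values are uncertain. SNRPD2 rose 18.2-fold in the transcriptomes, from 46.2, 43.1 and 57.2 to 597, 1227 and 846 CPM (log2 change 4.19 ± 0.42, adjusted p = 1.56e-08), and to about the same extent in the pools (log2 change 4.23 ± 0.51, adjusted p = 5.99e-07). SNRPD3 passed the threshold in the pools alone (log2 change 1.91 ± 0.38, adjusted p = 0.000283, against 0.57 log2 in the transcriptomes), and the difference between both changes was not called. SNRPF had 479, 727 and 1351 and then 202, 486 and 435 CPM in the transcriptomes (log2 change -1.19 ± 0.43, adjusted p = 0.0251), and its call was lost without 2-cell transcriptome C or 8-cell transcriptome A (log2 -1.47 to -0.69).

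SF3B5, the smallest subunit of SF3B, went from 35.3, 36.8 and 44.6 to 416, 733 and 523 CPM in the transcriptomes and from 169 and 141 to 2248 and 2067 CPM in the polysome pools (log2 change 3.84 ± 0.34, adjusted p = 3.46e-09 and log2 change 3.80 ± 0.42, adjusted p = 1.91e-07). SF3B1, the large subunit that encloses the branch point, also rose in both (log2 change 1.76 ± 0.23, adjusted p = 7.96e-07 and log2 change 3.08 ± 0.29, adjusted p = 2.59e-08), as did SF3B6, the subunit next to the branch-point adenosine (1.97 and 1.96 log2). SF3A1 and SF3A3, both of SF3A, fell in the transcriptomes (log2 change -1.80 ± 0.43, adjusted p = 0.00124 and log2 change -1.63 ± 0.28, adjusted p = 3.46e-05). Among the LSm proteins, LSM5, LSM6 and LSM8, which are subunits of the ring on U6 RNA, rose 9.08-fold, 5.78-fold and 5.27-fold in the transcriptomes. LSM11, a subunit of the U7 snRNP that processes histone mRNA, fell from 11, 11.4 and 13.8 CPM to 0.428, 1.34 and 1.04 CPM (log2 change -3.67 ± 0.97, adjusted p = 0.00289), and in the pools from 17.6 and 19.2 to 0.574 and 0.542 CPM (log2 change -5.03 ± 1.25, adjusted p = 0.00218).

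PRPF genes moved in both directions between 2-cell and 8-cell, with 5 of 13 risen and 5 fallen in the transcriptomes (26.6% and 23.5% of all genes). PRPF38B, related to the tri-snRNP-associated PRPF38A, rose from 11.8, 13.2 and 13.9 to 92.8, 122 and 81.9 CPM (log2 change 2.93 ± 0.34, adjusted p = 1.91e-07), and the kinase PRPF4B from 18.1, 20.5 and 15.2 to 56.7, 96.9 and 85.5 CPM (log2 change 2.15 ± 0.44, adjusted p = 0.000261). PRPF8, the core protein of U5, rose in the transcriptomes (log2 change 1.55 ± 0.28, adjusted p = 8.19e-05) and had a log2 change of 0.43 in the pools, which was not called. PRPF4 and PRPF6, both of the tri-snRNP, fell in the transcriptomes (log2 change -1.78 ± 0.27, adjusted p = 8.24e-06 and log2 change -1.60 ± 0.46, adjusted p = 0.00582). PRPF40B, a U1-associated protein, had 13.7, 14.6 and 20.5 and then 5.74, 2.78 and 4.18 CPM, and its fall of -1.94 log2 was lost without 2-cell transcriptome C, 8-cell transcriptome B or 8-cell transcriptome C (log2 -2.22 to -1.71). In the polysome pools the largest rise of the role was that of PRPF39, a U1-associated protein too, from 0.50 and 2.68 to 75.4 and 8.86 CPM (log2 change 4.73 ± 0.78, adjusted p = 3.39e-05, 3.98 without 2-cell polysome A, 6.38 without 2-cell polysome B, 2.48 without 8-cell polysome A and 5.57 without 8-cell polysome B). U2AF2, which binds the polypyrimidine tract, fell from 80.7, 51.7 and 75.8 to 9.51, 12.1 and 20.5 CPM in the transcriptomes (log2 change -2.31 ± 0.41, adjusted p = 5.35e-05) and from 618 and 676 to 181 and 209 CPM in the pools (log2 change -1.73 ± 0.48, adjusted p = 0.00533). U2AF1L4, a relative of the small subunit U2AF1, rose in the transcriptomes (log2 change 1.80 ± 0.30, adjusted p = 2.48e-05).

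**Figure D2:**
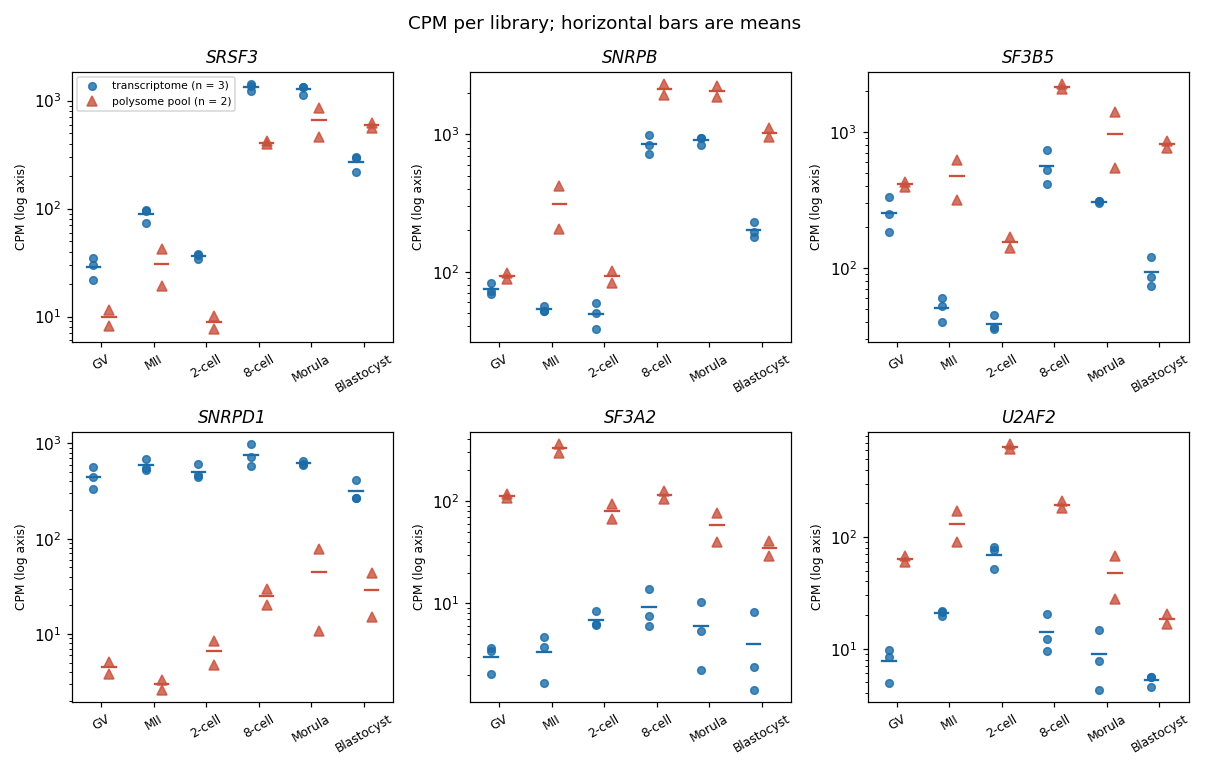
CPM (log axis) of 6 spliceosome genes at each stage, with circles for the 3 transcriptomes, triangles for the 2 polysome pools and bars for the means. SRSF3, SNRPB and SF3B5 were higher in every 8-cell library than in any 2-cell library, SNRPD1 was lower in the polysome pools than in the transcriptomes at all stages, and SF3A2 and U2AF2 were higher in the pools at all stages.

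At the earlier steps fewer genes changed. Between GV and MII, 5 rose and 8 fell in the transcriptomes (6.61% and 10.5% of all genes), and with RLE scaling 10 rose and 8 fell. SRSF3 rose from 29.9, 34.9 and 21.7 to 94.9, 73.2 and 97.5 CPM (log2 change 1.62 ± 0.28, adjusted p = 0.000122) and PRPF38B rose too (log2 change 1.39 ± 0.33, adjusted p = 0.00354). The rise of U2AF2 (1.44 log2) was lost without GV transcriptome B (log2 1.2 to 1.64). The largest falls were those of U2AF1L4 (59.9, 81.9 and 58.1 to 11.9, 8.82 and 8.92 CPM, log2 change -2.75 ± 0.31, adjusted p = 5.22e-07) and SF3B5 (log2 change -2.32 ± 0.32, adjusted p = 9.92e-06). LSM3, a subunit of both LSm rings, was next (log2 change -2.21 ± 0.51, adjusted p = 0.00278). In the polysome pools 7 rose and 2 fell (3.03% and 2.33% of all genes). SNRPB rose there from 98.7 and 88.6 to 204 and 421 CPM (log2 change 1.74 ± 0.29, adjusted p = 0.000829, 1.13 without MII polysome B) and was the only one of the 9 called in each fit that left out 1 library. The rise of SNRPN was lost without GV polysome A or MII polysome A (log2 1.70 to 3.03) and that of PRPF19 was lost without GV polysome A, GV polysome B or MII polysome A (log2 1.34 to 2.11). The fall of PRPF8 was lost without GV polysome B, MII polysome A or MII polysome B (log2 -1.77 to -0.78) and that of PRPF4 was lost without GV polysome A, GV polysome B or MII polysome A (log2 -1.67 to -0.71). The count of 9 became 3 without GV polysome A, 2 without GV polysome B, 3 without MII polysome A and 5 without MII polysome B.

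Between MII and 2-cell, 4 rose and 13 fell in the transcriptomes (6% and 5.96% of all genes), and the 4 rises became 2 without 2-cell transcriptome A, 2-cell transcriptome C, MII transcriptome A or MII transcriptome C. SNRPC, the U1-specific protein that stabilises pairing with the 5′ splice site, fell from 449, 359 and 359 to 79.1, 76.6 and 81.1 CPM (log2 change -2.30 ± 0.27, adjusted p = 3.93e-06). LSM8 fell (log2 change -2.22 ± 0.43, adjusted p = 0.000833) and so did U2AF1, which contacts the AG at the end of the intron (log2 change -1.85 ± 0.35, adjusted p = 0.000797). U2AF2 rose from 19.7, 21.6 and 21.4 to 80.7, 51.7 and 75.8 CPM (log2 change 1.73 ± 0.40, adjusted p = 0.00407) and U2AF1L4 rose as well (log2 change 1.32 ± 0.30, adjusted p = 0.0035). The rise of SF3A1 was lost without 2-cell transcriptome A, 2-cell transcriptome C, MII transcriptome A or MII transcriptome C (log2 1.33 to 1.63). Among polysome pools 4 rose and 10 fell (3.37% and 5.14%). SNRPB fell back there from 204 and 421 to 102 and 83.1 CPM (log2 change -1.75 ± 0.29, adjusted p = 0.000517, -1.15 without MII polysome B), and SF3B1 fell (log2 change -1.67 ± 0.28, adjusted p = 0.000555). The larger changes each lost their call when a library was left out. The rise of SRSF4 was lost without MII polysome A (log2 2.41 to 3.48). That of U2AF2 was lost without MII polysome B (log2 1.92 to 2.86). That of SRSF1 was lost without 2-cell polysome B or MII polysome A (log2 1.30 to 1.82). Among the falls, SF3A2 was lost without 2-cell polysome A, 2-cell polysome B, MII polysome A or MII polysome B (log2 -2.30 to -1.81). LSM8 was lost without 2-cell polysome B or MII polysome B (log2 -2.58 to -1.42). SRSF3 was lost without MII polysome B (log2 -2.23 to -1.11). The count of 14 became 9 without 2-cell polysome A, 6 without 2-cell polysome B and 7 without MII polysome B.

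From 8-cell to morula, 4 genes rose and 0 fell in the transcriptomes (6.6% and 7.75% of all genes), with 11 higher and 2 lower at an unadjusted p under 0.05 in edgeR's quasi-likelihood test. They were SRSF9 (52.4, 44.7 and 56.5 to 179.8, 183 and 254 CPM, log2 change 2.00 ± 0.25, adjusted p = 9.36e-06) and SNRPA, the U1 protein that binds a loop of U1 RNA (log2 change 1.31 ± 0.32, adjusted p = 0.00622). LSM12 followed (log2 change 1.28 ± 0.23, adjusted p = 0.000508). The fourth was U2AF1, whose call was lost without 8-cell transcriptome A, 8-cell transcriptome C, morula transcriptome B or morula transcriptome C (log2 1.13 to 1.26). Without 8-cell transcriptome A, 3 rose and 1 fell, and with RLE scaling 4 rose and 1 fell. Of the pools' changes 14 were rises and 4 falls (18.5% and 17.7%). Morula polysome A and B differed in many of these genes. LSM5 had 11.6 and 8.78 CPM at 8-cell and 119.6 and 15 at morula, and LSM6 had 2.62 and 8.78 and then 53 and 15.1. The rise of LSM5 was lost without morula polysome A (log2 0.57 to 3.58). That of LSM6 was lost without morula polysome A (log2 1.40 to 3.69). That of LSM8 was lost without morula polysome A (log2 0.72 to 2.92). Rises called in every fit were those of SRSF9 (105 and 92.7 to 466 and 334 CPM, log2 change 2.02 ± 0.31, adjusted p = 3.22e-05) and SRSF5 (log2 change 1.85 ± 0.32, adjusted p = 0.000142). So were those of SF3B2 (log2 change 1.65 ± 0.31, adjusted p = 0.00031), LSM12 (log2 change 1.60 ± 0.29, adjusted p = 0.000178) and SNRPA (log2 change 1.56 ± 0.39, adjusted p = 0.00353). The fall of U2AF2 was lost without morula polysome A (log2 -2.78 to -1.51). That of PRPF38B was lost without 8-cell polysome A (log2 -1.70 to -0.98). That of PRPF19 was lost without 8-cell polysome A, 8-cell polysome B or morula polysome A (log2 -2.80 to -0.55). The count of 18 became 9 without morula polysome A and 31 without morula polysome B.

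Between morula and blastocyst, 4 rose and 19 fell in the transcriptomes (10.2% and 11.4%), with a median log2 change of -0.63 over the 59 genes and -0.01 over all genes. SRSF3 fell from 1332, 1134 and 1343 to 220.2, 294 and 298 CPM (log2 change -2.23 ± 0.28, adjusted p = 3.69e-06). SNRPA fell from 98.1, 108 and 71.8 to 28.8, 16 and 16.2 CPM (log2 change -2.19 ± 0.33, adjusted p = 3.19e-05) and SNRPB from 836, 946 and 936 to 195, 178 and 229 CPM (log2 change -2.17 ± 0.24, adjusted p = 6.83e-07). These groups did not overlap. SRSF2 rose (log2 change 1.08 ± 0.21, adjusted p = 0.000481). The rise of PRPF40B was lost without morula transcriptome C (log2 2.32 to 3.36). That of PRPF19 was lost without blastocyst transcriptome A or morula transcriptome C (log2 1.09 to 1.77). That of PRPF31 was lost without blastocyst transcriptome A, blastocyst transcriptome C, morula transcriptome A, morula transcriptome B or morula transcriptome C (log2 1.02 to 1.43). In the polysome pools 0 rose and 6 fell (5.79% and 8.13%), and at an unadjusted p under 0.05 in edgeR's quasi-likelihood test 0 were higher and 14 lower. The fall of PRPF18, which acts in the second step of splicing, was lost without morula polysome A (log2 -2.94 to -0.93). That of PRPF19, a ubiquitin ligase, was lost without blastocyst polysome B or morula polysome B (log2 -2.84 to -0.59). The count of 6 became 13 without morula polysome A, 13 without morula polysome B and 3 without blastocyst polysome B.

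The difference between the polysome pool and the transcriptome of the same stage measures how the composition of polysome-occupied mRNA departs from that of all mRNA. The pools also went through a sucrose gradient that the transcriptomes did not, and the part of that handling was not tested. Most of the calls were made in the same direction for the monosome pool too, so they are not particular to polysomes. From GV to morula more spliceosome genes were called lower in the polysome pool than higher, and at blastocyst the counts were nearly equal. At GV 8 were higher and 29 lower (22.2% and 17.7% of all genes), at MII 12 and 33 (30.8% and 26.7%), at 2-cell 14 and 30 (29.1% and 21.9%) and at 8-cell 13 and 27 (28% and 31%). At morula the counts were 19 and 22 (26.5% and 25.2%) and at blastocyst 17 and 18 (20% and 20.1%). The blastocyst counts were 17 and 17 with no filter on low counts and 16 and 16 with the pool of F9 and F10. Without morula polysome A the counts at morula were 9 and 26, and without 2-cell polysome A those at 2-cell were 9 and 25. The median log2 difference of the 59 genes was -0.95, -1.11, -1.13, -0.65, -0.19 and -0.34 from GV to blastocyst, beside 0.00, 0.00, 0.18, -0.26, 0.00 and -0.08 over all 14612 genes. Without 8-cell transcriptome A, 12 were higher and 26 lower at 8-cell. Calls at all 6 stages in the same direction were made for 16 genes. Of these 4 were higher (6.78% of the 59, beside 9.92% of all genes) and 12 lower (20.3%, beside 5.78%). The 4 were SF3A2, SF3B4, U2AF2 and LSM10, and the 12 included SNRPD1, SNRPB2, SF3A3, SF3B1, PRPF38A, PRPF39, LSM3, LSM6, SRSF1, SRSF10 and SRSF11. Among these SF3A2, U2AF2, SNRPD1, SNRPB2, SF3B1 and SRSF11 kept their call at every stage in every fit that left out 1 library. Per stage, 29 of 37, 39 of 45, 30 of 44, 30 of 40, 22 of 41 and 22 of 35 calls were kept in all those fits. Another 11 genes were higher at some stages and lower at others, beside 7.53% of all genes. PRPF4, PRPF40B, LSM7 and LSM11 were called at no stage, beside 1929 of all 14612 genes.

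**Figure D3:**
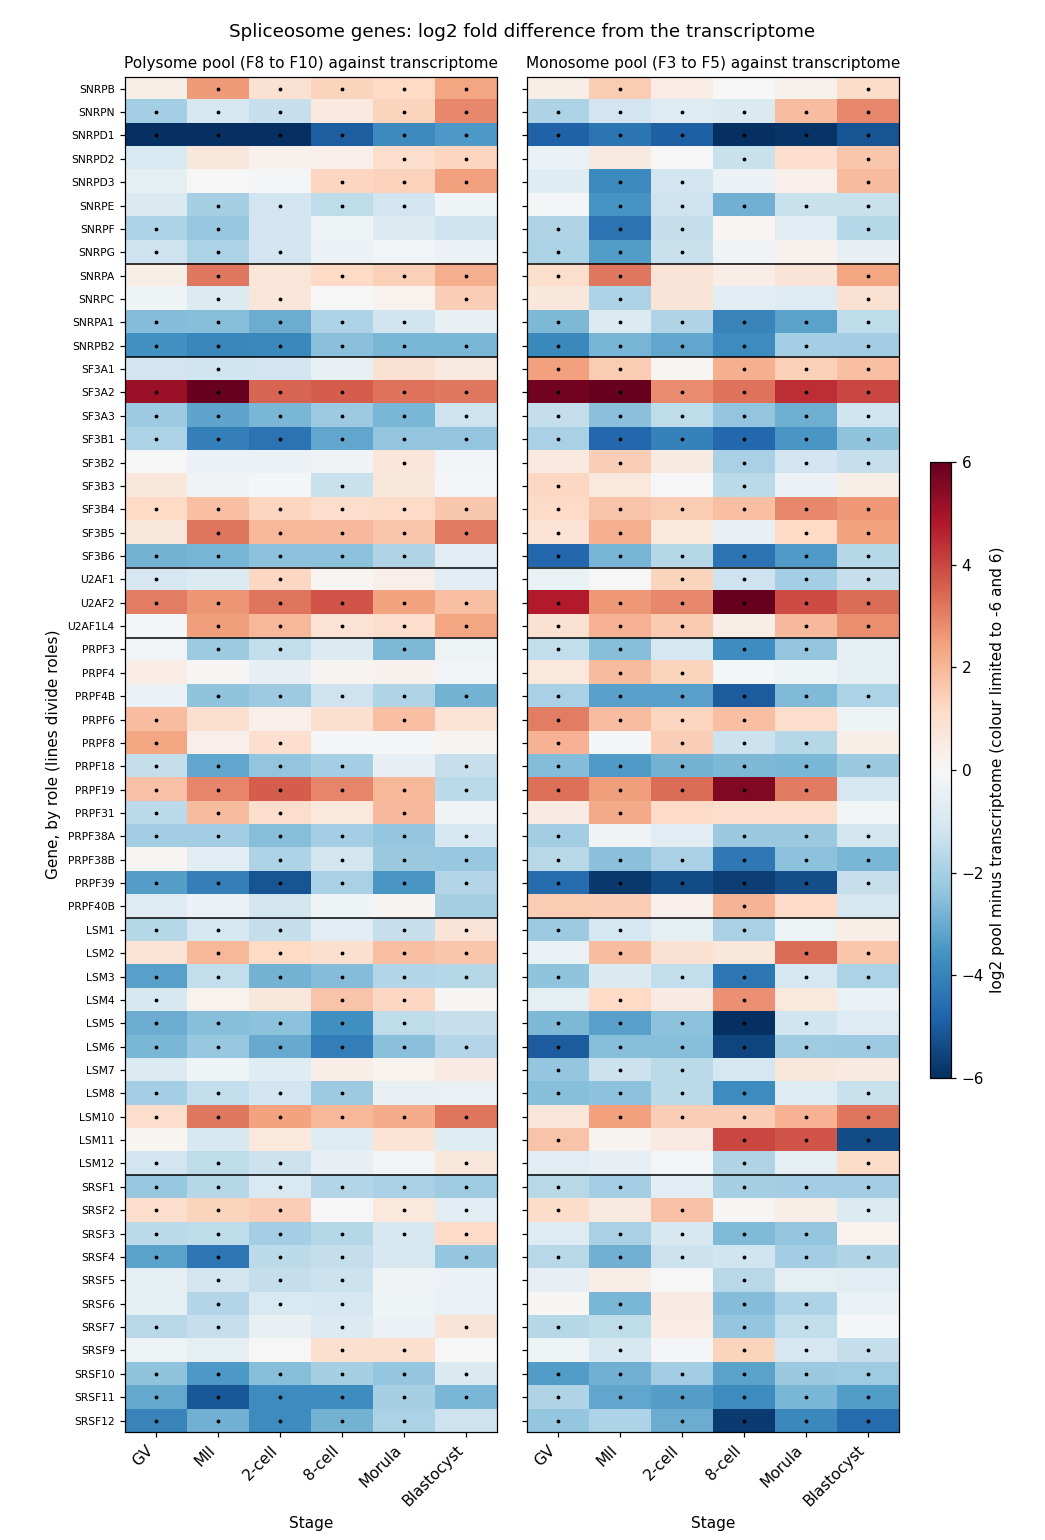
Log2 difference from the transcriptome for 58 of the 59 genes (rows, grouped by role) at each stage (columns), for the polysome pool (left) and the monosome pool (right), with a dot where the adjusted p was under 0.05 and colours limited to -6 and 6. The rows of SF3A2, U2AF2 and SNRPD1 keep their colour at all stages in both panels.

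Within the Sm ring the subunits differed. SNRPD1 was lower in the polysome pool at every stage. Its transcriptomes had 446 ± 115 at GV, 589 ± 93 at MII, 506 ± 89.5 at 2-cell, 762 ± 201 at 8-cell, 620.1 ± 29.3 at morula and 316 ± 82.9 at blastocyst CPM (mean ± SD, n = 3). Its polysome pools A and B had 5.12 and 3.81 at GV, 3.31 and 2.61 at MII, 4.75 and 8.43 at 2-cell, 20 and 30 at 8-cell, 78 and 10.6 at morula, and 15 and 43.6 at blastocyst CPM. No pool reached the lowest transcriptome of its stage. The largest difference was at MII (log2 difference -7.63 ± 0.72, adjusted p = 3.78e-09) and the smallest at blastocyst (log2 difference -3.43 ± 0.58, adjusted p = 5.25e-05, -4.40 without blastocyst polysome B), and at MII the polysome level was 198-fold lower. In RefSeq the gene overlaps ESCO1, and the library kit does not keep strand, so reads of both could not be told apart where they overlap.

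SNRPB was higher in the pool at every stage but GV. Its transcriptomes averaged 74.5 ± 6.97 at GV, 53.5 ± 2.51 at MII, 49.1 ± 10.5 at 2-cell, 849 ± 137 at 8-cell, 906 ± 60.7 at morula and 201 ± 25.6 at blastocyst CPM. The pools had 98.7 and 88.6 at GV, 204 and 421 at MII, 102 and 83.1 at 2-cell, 1943 and 2321 at 8-cell, 2263 and 1881 at morula, and 1107 and 951 at blastocyst CPM. The difference was 0.33 log2 at GV, which was not called, and reached its highest value at MII (log2 difference 2.55 ± 0.26, adjusted p = 1.11e-08, 1.90 without MII polysome B), with log2 difference 2.36 ± 0.26, adjusted p = 1.51e-07 at blastocyst. The call at 2-cell was lost without 2-cell polysome A (log2 0.75 to 1.07). SNRPN turned from lower to higher, with averages of 8.24 ± 0.919 at GV, 20.6 ± 4.15 at MII, 9.75 ± 1.57 at 2-cell, 108 ± 17 at 8-cell, 150.2 ± 38.5 at morula and 48.8 ± 7.49 at blastocyst CPM in the transcriptomes. Its pools had 1.26 and 2.7 at GV, 14.2 and 6.54 at MII, 5.14 and 2.21 at 2-cell, 149 and 172 at 8-cell, 519 and 243 at morula, and 321 and 405 at blastocyst CPM. It was lower at GV (log2 difference -2.05 ± 0.44, adjusted p = 0.000554, -2.70 without GV polysome B) and higher at blastocyst (log2 difference 2.90 ± 0.40, adjusted p = 3.68e-06). The MII call was lost without MII polysome B, MII transcriptome B or MII transcriptome C (log2 -1.71 to -0.57), the 2-cell call was lost without 2-cell polysome B (log2 -2.14 to -0.93), and that at morula was lost without morula polysome A (log2 0.67 to 1.78). SNRPD3 was higher from 8-cell on, with 393, 632 and 430.1 CPM in the 8-cell transcriptomes and 1313 and 1047 in the pools (log2 difference 1.28 ± 0.33, adjusted p = 0.00203) and with log2 difference 2.48 ± 0.34, adjusted p = 2.86e-06 at blastocyst. At morula its call was lost without morula polysome A (log2 0.64 to 1.87). SNRPE and SNRPF were lower at MII (log2 difference -1.97 ± 0.42, adjusted p = 0.000332 and log2 difference -2.25 ± 0.52, adjusted p = 0.000791), and SNRPG too (log2 difference -1.90 ± 0.49, adjusted p = 0.00191).

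The U1 and U2 proteins split as well. SNRPB2, a protein that binds U2 RNA, was lower at all 6 stages. Transcriptomes held 376 ± 69.1 at GV, 493 ± 148 at MII, 218 ± 41.3 at 2-cell, 208 ± 61.5 at 8-cell, 209 ± 18.9 at morula and 268 ± 90.9 at blastocyst CPM. Pools held 31.5 and 29.6 at GV, 20.2 and 45.6 at MII, 14.7 and 14.9 at 2-cell, 60.2 and 13.5 at 8-cell, 46.7 and 16.4 at morula, and 33 and 48 at blastocyst CPM, all under the transcriptomes of their stage. Its difference was -3.91 log2 at MII (-4.64 without MII polysome B) and -2.50 at 8-cell (-3.95 without 8-cell polysome A and -1.79 without 8-cell polysome B). At GV SNRPB2 was far below its transcriptomes (log2 difference -3.62 ± 0.56, adjusted p = 1.25e-05). Its partner SNRPA1 (the A-prime protein of U2) was lower from GV to 8-cell (log2 difference -2.60 ± 0.32, adjusted p = 6.11e-07 at GV and log2 difference -1.85 ± 0.31, adjusted p = 2.19e-05 at 8-cell), and at morula its call was lost without morula polysome B (log2 -2.02 to -0.70). SNRPA of U1 showed the opposite pattern, with transcriptomes of 45.5 ± 2.43 at GV, 17.5 ± 2.45 at MII, 28.2 ± 1.69 at 2-cell, 37.4 ± 13.7 at 8-cell, 92.5 ± 18.6 at morula and 20.3 ± 7.35 at blastocyst CPM. Its pools held 55.6 and 59 at GV, 98.6 and 214 at MII, 45.1 and 49.1 at 2-cell, 65.8 and 103 at 8-cell, 252 and 244 at morula, and 106 and 78.5 at blastocyst CPM. It was higher at MII (log2 difference 3.16 ± 0.36, adjusted p = 6.45e-08, 2.46 without MII polysome B), morula (log2 difference 1.42 ± 0.34, adjusted p = 0.00147) and blastocyst (log2 difference 2.19 ± 0.35, adjusted p = 2.77e-05). Its call at 8-cell was lost without 8-cell polysome B (log2 0.82 to 1.51). SNRPC was higher at blastocyst (log2 difference 1.49 ± 0.29, adjusted p = 0.000224).

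SF3A and SF3B held members at both ends. SF3A2 had the largest positive difference of the 59 genes at GV and MII. At GV its transcriptomes had 3.42, 2.05 and 3.65 CPM and its pools 105 and 115 CPM (log2 difference 5.18 ± 0.62, adjusted p = 4.26e-07), and at MII 3.78, 4.66 and 1.67 and 355 and 296 CPM (log2 difference 6.58 ± 0.66, adjusted p = 8.60e-09). At blastocyst the values were 8.23, 1.45 and 2.4 and 41 and 28.8 CPM (log2 difference 3.16 ± 0.60, adjusted p = 0.000181, 4.17 without blastocyst transcriptome A). Pools lay above all transcriptomes at each stage. SF3A3, the subunit that joins SF3A1 and SF3A2 in the same complex, was lower at every stage, by 9.05-fold at MII (log2 difference -3.18 ± 0.35, adjusted p = 3.79e-08, -3.77 without MII polysome B). Its call at blastocyst was lost without blastocyst polysome A (log2 -1.58 to -1.01).

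SF3B1 was lower at every stage. Its transcriptomes averaged 218 ± 30.7 at GV, 565 ± 192 at MII, 225 ± 52.4 at 2-cell, 760.2 ± 34.4 at 8-cell, 652 ± 33.9 at morula and 421 ± 44.2 at blastocyst CPM. Its pools had 56.3 and 60.2 at GV, 33.5 and 33.2 at MII, 9.98 and 10.9 at 2-cell, 80.4 and 95.9 at 8-cell, 117 and 136 at morula, and 81.9 and 81.5 at blastocyst CPM. The difference was largest at 2-cell (log2 difference -4.43 ± 0.30, adjusted p = 1.24e-10) and smallest at GV (log2 difference -1.90 ± 0.26, adjusted p = 3.29e-06). SF3B5 was higher from MII on, with transcriptome averages of 254 ± 73.6 at GV, 50.9 ± 10.3 at MII, 38.9 ± 5.0 at 2-cell, 557 ± 161 at 8-cell, 306 ± 5.81 at morula and 93.2 ± 24.4 at blastocyst CPM. Its pools had 396 and 429 at GV, 317 and 625 at MII, 169 and 141 at 2-cell, 2248 and 2067 at 8-cell, 1394 and 547 at morula, and 761 and 862 at blastocyst CPM. SF3B5 was well above its transcriptomes at MII (log2 difference 3.21 ± 0.35, adjusted p = 3.93e-08, 2.60 without MII polysome B) and blastocyst (log2 difference 3.12 ± 0.35, adjusted p = 2.48e-07). The call at morula was lost without morula polysome A (log2 0.82 to 2.18). SF3B4 was higher at all 6 stages, by 1.06 log2 at 8-cell to 1.82 at MII. The call at morula was lost without morula polysome B (log2 0.50 to 1.53). SF3B6 was lower from GV to morula, with log2 difference -2.85 ± 0.40, adjusted p = 4.00e-06 at GV. RefSeq places FKBP1B over SF3B6, so its reads are uncertain in the same way as those of SNRPD1.

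Of the U2AF genes, U2AF2 was higher in the pool at every stage. Transcriptomes held 7.69 ± 2.46 at GV, 20.9 ± 1.05 at MII, 69.4 ± 15.5 at 2-cell, 14 ± 5.76 at 8-cell, 8.98 ± 5.37 at morula and 5.25 ± 0.597 at blastocyst CPM. Pools held 59.9 and 67.9 at GV, 169.7 and 89.4 at MII, 618 and 676 at 2-cell, 181 and 209 at 8-cell, 28 and 68.2 at morula, and 20.6 and 16.5 at blastocyst CPM. The gap was largest at 8-cell (log2 difference 3.79 ± 0.45, adjusted p = 1.98e-07) and smallest at blastocyst (log2 difference 1.82 ± 0.45, adjusted p = 0.00246). U2AF1 had transcriptome averages of 45.2 ± 10.8 at GV, 60.4 ± 5.81 at MII, 16.7 ± 4.03 at 2-cell, 35.5 ± 3.11 at 8-cell, 80.8 ± 2.78 at morula and 76.5 ± 35.6 at blastocyst CPM. Its pools had 24.6 and 20.5 at GV, 32.5 and 35.9 at MII, 37 and 42.5 at 2-cell, 36.8 and 40.6 at 8-cell, 143 and 56 at morula, and 35.4 and 60.3 at blastocyst CPM. It was called lower at GV and higher at 2-cell, of which the first was lost without GV polysome A, GV polysome B, GV transcriptome A, GV transcriptome B or GV transcriptome C (log2 -1.14 to -0.79) and the second lost without 2-cell polysome B (log2 1.14 to 1.47). U2AF1L4, which overlaps PSENEN in RefSeq, was higher from MII on, with log2 difference 2.50 ± 0.33, adjusted p = 6.10e-07 at MII and log2 difference 2.35 ± 0.32, adjusted p = 3.77e-06 at blastocyst. Its calls at 8-cell and morula were lost without 8-cell polysome A or 8-cell transcriptome C (log2 0.66 to 1.09) and lost without morula polysome A (log2 0.42 to 1.49).

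Among PRPF genes, PRPF19 was higher from GV to 8-cell. Its transcriptomes averaged 8.94 ± 2.23 at GV, 13.6 ± 2.69 at MII, 22.2 ± 3.4 at 2-cell, 14.6 ± 1.21 at 8-cell, 11.6 ± 2.62 at morula and 32.4 ± 14.7 at blastocyst CPM. Its pools had 29.6 and 30.5 at GV, 129.6 and 77.2 at MII, 279 and 267 at 2-cell, 106 and 119 at 8-cell, 15.9 and 76.3 at morula, and 11.3 and 9.7 at blastocyst CPM. The gap was largest at 2-cell (log2 difference 3.62 ± 0.47, adjusted p = 7.78e-07). The call at morula was lost without morula polysome B (log2 0.44 to 2.69), and the lower value at blastocyst (-1.62 log2) was lost without blastocyst polysome B or blastocyst transcriptome A (log2 -1.93 to -1.25). PRPF8 had transcriptomes of 50.8 ± 8.25 at GV, 82.7 ± 10 at MII, 38.4 ± 2.07 at 2-cell, 113 ± 15.2 at 8-cell, 164 ± 9.94 at morula and 164 ± 5.64 at blastocyst CPM. Its pools had 172 and 345 at GV, 107 and 94.7 at MII, 92.3 and 64.6 at 2-cell, 66.6 and 145 at 8-cell, 125 and 189 at morula, and 189 and 182 at blastocyst CPM. It was higher at GV (log2 difference 2.35 ± 0.31, adjusted p = 1.56e-06), and at 2-cell the call was lost without 2-cell polysome A (log2 0.74 to 1.26). PRPF39 and PRPF38A were lower at all 6 stages. PRPF39 had 62.3, 67.6 and 43.8 CPM in the 2-cell transcriptomes and 0.50 and 2.68 in the pools (log2 difference -5.19 ± 0.78, adjusted p = 5.58e-06, -4.44 without 2-cell polysome A and -6.84 without 2-cell polysome B). Calls at 8-cell and blastocyst were lost without 8-cell polysome B (log2 -4.17 to -1.08) and lost without blastocyst polysome A, blastocyst polysome B or blastocyst transcriptome B (log2 -2.31 to -1.41). The call of PRPF38A at blastocyst was lost without blastocyst polysome A (log2 -1.40 to -0.68). The kinase PRPF4B and PRPF18 were lower at 5 stages each, with log2 difference -2.83 ± 0.53, adjusted p = 0.000153, -3.80 without blastocyst polysome A for PRPF4B at blastocyst and log2 difference -3.13 ± 0.41, adjusted p = 6.68e-07 for PRPF18 at MII.

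Subunits of the LSm rings that sit on U6 RNA or on mRNA ends differed. LSM3 and LSM6 were called lower at all stages, LSM2 was called higher from MII on, and LSM4 was higher at 8-cell (log2 difference 1.71 ± 0.35, adjusted p = 0.000232). LSM6 had 84, 106 and 113 CPM in the 8-cell transcriptomes and 2.62 and 8.78 in the pools (log2 difference -4.14 ± 0.61, adjusted p = 4.42e-06, -3.52 without 8-cell polysome A and -5.26 without 8-cell polysome B). At blastocyst its call was lost without blastocyst polysome A (log2 -2.09 to -1.52). LSM5 had transcriptome averages of 47.9 ± 11 at GV, 40.8 ± 20 at MII, 14.2 ± 4.01 at 2-cell, 129 ± 58.8 at 8-cell, 196 ± 20.5 at morula and 156 ± 8.84 at blastocyst CPM. Its pools had 6.43 and 5.78 at GV, 5.33 and 8.62 at MII, 2.33 and 2.74 at 2-cell, 11.6 and 8.78 at 8-cell, 119.6 and 15 at morula, and 39.2 and 78.9 at blastocyst CPM. It was 12.7-fold lower at 8-cell (log2 difference -3.66 ± 0.65, adjusted p = 4.87e-05) and its call at morula was lost without morula polysome B or morula transcriptome C (log2 -3.73 to -0.72). LSM1, the subunit that sets apart the cytoplasmic ring of mRNA decay, averaged 182 ± 10.6 at GV, 232 ± 35.4 at MII, 152 ± 6.24 at 2-cell, 192 ± 44 at 8-cell, 197 ± 33.7 at morula and 65.7 ± 13.5 at blastocyst CPM. Its pools had 56.1 and 54.2 at GV, 92.8 and 129 at MII, 58.7 and 54.1 at 2-cell, 134 and 111 at 8-cell, 99.6 and 54.2 at morula, and 87.3 and 134 at blastocyst CPM. It was lower at GV, 2-cell and morula (log2 difference -1.72 ± 0.31, adjusted p = 7.74e-05, log2 difference -1.43 ± 0.30, adjusted p = 0.000364 and log2 difference -1.36 ± 0.30, adjusted p = 0.00064). Calls at MII and blastocyst were lost without MII polysome A (log2 -1.35 to -0.91) and lost without blastocyst polysome B, blastocyst transcriptome A or blastocyst transcriptome B (log2 0.41 to 1.01). LSM3 differed most at GV (log2 difference -3.27 ± 0.63, adjusted p = 0.000183). The call was lost without MII polysome A or MII transcriptome A (log2 -2.07 to -1.13) at MII, lost without morula polysome B (log2 -4.02 to -0.93) at morula and lost without blastocyst polysome A, blastocyst polysome B or blastocyst transcriptome C (log2 -2.02 to -1.44) at blastocyst. LSM10, which replaces an Sm subunit in the U7 snRNP, was higher at all stages, with 25.2, 17.4 and 9.99 CPM in MII transcriptomes and 119 and 196 in the pools (log2 difference 3.17 ± 0.37, adjusted p = 1.21e-07). The GV call was lost without GV polysome B, GV transcriptome A or GV transcriptome C (log2 0.84 to 1.25). LSM2, which overlaps VARS1 in RefSeq, was higher from MII on (log2 difference 2.01 ± 0.41, adjusted p = 0.000189, 1.38 without MII polysome B at MII and log2 difference 1.65 ± 0.40, adjusted p = 0.00232 at blastocyst), and its calls at 2-cell and 8-cell were lost without 2-cell polysome A or 2-cell transcriptome A (log2 0.80 to 1.48) and lost without 8-cell polysome A, 8-cell polysome B, 8-cell transcriptome A, 8-cell transcriptome B or 8-cell transcriptome C (log2 0.89 to 1.06).

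SR protein genes were lower in the polysome pool in 7 of 11 cases at GV, 9 at MII, 8 at 2-cell, 9 at 8-cell, 5 at morula and 5 at blastocyst. Of all genes 17.7, 26.7, 21.9, 31, 25.2 and 20.1% were lower at these stages. Called higher were 1 SR gene at each stage from GV to 8-cell and 2 each at morula and blastocyst. The shares of all genes called higher were 22.2, 30.8, 29.1, 28, 26.5 and 20%. SRSF1 was lower at all stages. Its transcriptomes averaged 27.8 ± 0.273 at GV, 20.7 ± 6.62 at MII, 34.4 ± 4.94 at 2-cell, 116 ± 23.8 at 8-cell, 190.4 ± 47.2 at morula and 224 ± 7.88 at blastocyst CPM. Its pools had 4.36 and 7.19 at GV, 5.12 and 7.47 at MII, 16.4 and 20.2 at 2-cell, 32 and 37.6 at 8-cell, 62.1 and 38 at morula, and 35.4 and 65.7 at blastocyst CPM. The gap was similar in size at GV (log2 difference -2.27 ± 0.37, adjusted p = 3.29e-05) and blastocyst (log2 difference -2.15 ± 0.37, adjusted p = 6.32e-05). The 2-cell call was lost without 2-cell polysome A, 2-cell polysome B, 2-cell transcriptome B or 2-cell transcriptome C (log2 -1.07 to -0.78). SRSF11 had the largest negative difference of the role at MII, with transcriptomes of 68.6, 66.3 and 79.8 CPM and pools of 2.92 and 1.22 CPM (log2 difference -5.11 ± 0.63, adjusted p = 2.63e-07, -5.93 without MII polysome A). SRSF10 was lower at all stages too (log2 difference -3.42 ± 0.25, adjusted p = 5.25e-11 at MII). The blastocyst call was lost without blastocyst polysome A (log2 -0.99 to -0.74). SRSF12 was lower at GV by 15.9-fold (log2 difference -3.99 ± 0.79, adjusted p = 0.000247). SRSF4 was lower at MII by 20.5-fold (log2 difference -4.36 ± 0.67, adjusted p = 6.09e-06, -5.04 without MII polysome B).

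SRSF2, SRSF3 and SRSF7 changed direction along development. SRSF2, which overlaps METTL23 in RefSeq, averaged 27.4 ± 1.2 at GV, 30.9 ± 5.83 at MII, 22.3 ± 0.831 at 2-cell, 251 ± 24.5 at 8-cell, 275 ± 19.4 at morula and 581 ± 85.4 at blastocyst CPM in the transcriptomes. Its pools had 57.8 and 54.5 at GV, 88.9 and 68 at MII, 67 and 55.9 at 2-cell, 272 and 243 at 8-cell, 415 and 428 at morula, and 435 and 286 at blastocyst CPM. It was higher at GV (log2 difference 1.03 ± 0.23, adjusted p = 0.000793), MII (log2 difference 1.35 ± 0.23, adjusted p = 2.27e-05) and 2-cell (log2 difference 1.46 ± 0.23, adjusted p = 1.01e-05). Later calls were lost without morula polysome A, morula polysome B, morula transcriptome A or morula transcriptome B (log2 0.58 to 0.66) at morula and lost without blastocyst polysome B, blastocyst transcriptome B or blastocyst transcriptome C (log2 -1.04 to -0.42) at blastocyst. SRSF3 averaged 28.8 ± 6.65 at GV, 88.6 ± 13.4 at MII, 36.4 ± 2.06 at 2-cell, 1342 ± 96.2 at 8-cell, 1269.8 ± 118 at morula and 270.5 ± 43.6 at blastocyst CPM in the transcriptomes. Its pools had 11.6 and 8.13 at GV, 19.1 and 42 at MII, 7.62 and 10.2 at 2-cell, 423 and 396 at 8-cell, 858 and 456 at morula, and 620.0 and 563 at blastocyst CPM. It was lower from GV to 8-cell (log2 difference -1.55 ± 0.32, adjusted p = 0.000397 at GV and log2 difference -1.71 ± 0.32, adjusted p = 8.16e-05 at 8-cell) and higher at blastocyst (log2 difference 1.13 ± 0.29, adjusted p = 0.00383). The morula call was lost without morula polysome B (log2 -1.50 to -0.57). SRSF7 averaged 356 ± 69.8 at GV, 421 ± 52.5 at MII, 177 ± 25.6 at 2-cell, 574 ± 58 at 8-cell, 763 ± 67 at morula and 349 ± 31.7 at blastocyst CPM. Its pools had 133 and 88.6 at GV, 147 and 182 at MII, 116 and 146 at 2-cell, 398 and 252 at 8-cell, 648 and 564 at morula, and 640.0 and 541 at blastocyst CPM. It was lower at GV and MII (log2 difference -1.68 ± 0.26, adjusted p = 1.55e-05 and log2 difference -1.36 ± 0.26, adjusted p = 9.40e-05). Calls at 8-cell and blastocyst were lost without 8-cell polysome B (log2 -1.18 to -0.53) and lost without blastocyst polysome A or blastocyst transcriptome B (log2 0.61 to 0.87). SRSF9 was higher at 8-cell (log2 difference 0.95 ± 0.27, adjusted p = 0.00452). The morula call was lost without morula polysome A (log2 0.68 to 1.17).

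The monosome pools were set against the same transcriptomes, so both sets of differences share their control libraries and are given side by side. In the monosome pool 13 genes were higher and 28 lower at GV (31.8% and 20.9% of all 14545 genes tested), 16 and 31 at MII (34.7% and 24.9%), 11 and 26 at 2-cell (30.6% and 18%), 11 and 35 at 8-cell (34.7% and 36.7%), 11 and 29 at morula (29.6% and 29.3%) and 15 and 27 at blastocyst (17.9% and 25%). Most genes called in the polysome pool had the same call in the monosome pool. The counts were 31 of 37 at GV, 38 of 45 at MII and 32 of 44 at 2-cell. At 8-cell, morula and blastocyst they were 34 of 40, 30 of 41 and 31 of 35. Such repeated calls were not counted over all genes. For SNRPD1 the monosome difference was -4.83 log2 at GV and -5.19 at blastocyst, beside -6.64 and -3.43 in the polysome pool. For SNRPB2 it was -2.81 at MII beside -3.91, for SF3A2 5.77 at GV beside 5.18, and for U2AF2 6.36 at 8-cell beside 3.79. SF3A1 was called in opposite directions at MII (1.52 ± 0.39, adjusted p = 0.00185 for the monosome pool, -1.21 log2 for the polysome pool, the latter lost without MII polysome A, MII polysome B, MII transcriptome B or MII transcriptome C (log2 -1.40 to -1.09)). SF3B2 and SRSF9 were called lower in the morula monosome pool (-1.17 ± 0.34, adjusted p = 0.00573 and -0.99 ± 0.30, adjusted p = 0.00639) and higher in the morula polysome pool (0.71 and 0.96 log2), and the polysome call of SF3B2 was lost without morula polysome A, morula polysome B, morula transcriptome A or morula transcriptome C (log2 0.65 to 0.79).

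Polysome and monosome pools were then compared directly, which asks whether an mRNA held a larger part of the heavy or of the light fractions. Levels are relative to the other mRNA in a pool and do not give how an mRNA was distributed over the gradient. Outside the 8-cell stage nearly no gene was called. At GV 0 were higher and 0 lower (0.346% and 0.0731% of all 15049 genes), at 2-cell 0 and 0 (0% and 0%), at morula 0 and 0 (0.12% and 0.246%) and at blastocyst 0 and 0 (0.246% and 0.299%) by edgeR's quasi-likelihood test, with 5 higher and 2 lower, 3 and 3, 6 and 6, and 3 and 1 at an unadjusted p under 0.05. DESeq2 called 3, 0, 6 and 2 genes and the likelihood ratio test 1, 0, 4 and 0 at these stages. With the gradient as a block the counts were 1 at GV (SF3A1), 0 at 2-cell, 2 at morula (SF3B4 and SRSF9) and 0 at blastocyst. Without morula monosome B or without morula polysome B, 2 were called at morula. At MII 1 gene was higher and 0 lower (0.14% and 0.0532%). That gene was SNRPD3, with 34.6 and 50.6 CPM in the monosome pools and 773 and 479 CPM in the polysome pools (log2 difference 3.88 ± 0.55, adjusted p = 0.000783), and the call was lost without MII monosome A (log2 3.49 to 4.21).

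At 8-cell 6 genes were higher in the polysome pool and 1 was lower (3.17% and 2.66% of all genes), and the median log2 difference was 1.17 over the 59 genes and 0.00 over all genes. SF3B5 had 455 and 295 CPM in the monosome pools and 2102 and 1908 CPM in the polysome pools (log2 difference 2.42 ± 0.55, adjusted p = 0.016). SRSF7 had 129 and 83.4 and 372 and 233 CPM (log2 difference 1.51 ± 0.41, adjusted p = 0.0331). In these the pools did not overlap. PRPF4B (3.24 and 1.42 and 39 and 23.5 CPM, log2 difference 3.74 ± 1.08, adjusted p = 0.0408), SF3B2 (log2 difference 1.77 ± 0.53, adjusted p = 0.0471) and SNRPD3 (log2 difference 1.66 ± 0.50, adjusted p = 0.0496) were also among the 6. SF3A1 was lower, with 89.8 and 75.7 CPM in the monosome pools and 8.13 and 19.8 in the polysome pools (log2 difference -2.57 ± 0.76, adjusted p = 0.0448). The count of 7 became 0 without 8-cell monosome A, without 8-cell monosome B or without 8-cell polysome A. With RLE scaling 2 were higher and 3 lower. With the gradient as a block 8 were higher and 3 lower, among them U2AF2 (1203 and 906 against 169 and 193 CPM, adjusted p = 0.0331) and PRPF19 (669 and 594 against 99.2 and 109.5 CPM, adjusted p = 0.00746), both lower in the polysome pool.

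**Figure D4:**
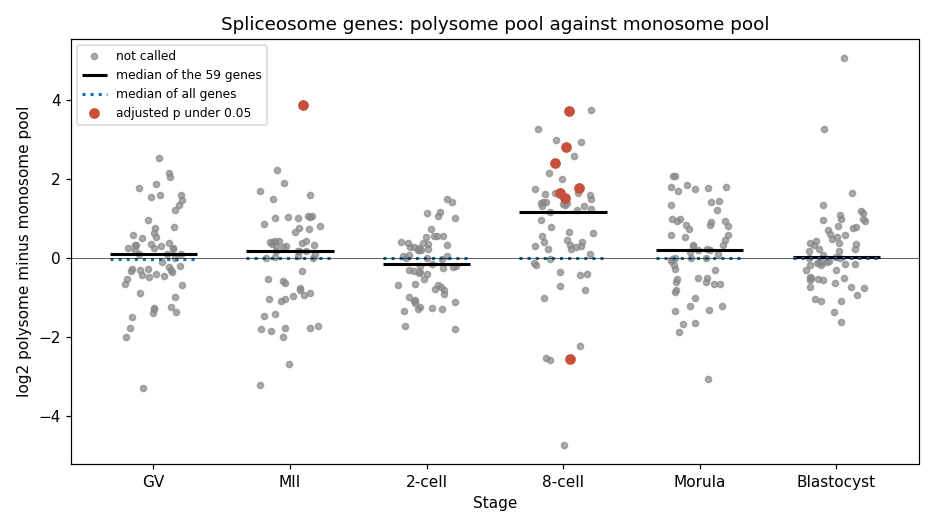
Log2 difference of the polysome pool (F8 to F10) from the monosome pool (F3 to F5) for the 59 genes at each stage, 1 point per gene, with solid bars for their median, dotted bars for the median of all genes and coloured points for adjusted p under 0.05. The median of the 59 genes was 1.17 at 8-cell and between -0.15 and 0.21 at the other stages.

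The profiles over single fractions are described without a test, since the fractions of a gradient come from 1 lysate. Spearman's rho of CPM with the fraction number over F3 to F10 had a median over the 59 genes of 0.06 at GV, 0.00 at MII, -0.20 at 2-cell, 0.31 at 8-cell, 0.13 at morula and 0.14 at blastocyst. Over all genes with a mean of at least 1 CPM the medians were -0.08, -0.12, -0.08, -0.11, -0.01 and 0.16. At 8-cell 43 of the 59 genes had a positive rho, beside 41.0% of all genes, and 17 had their highest CPM in F8, F9 or F10 in both gradients. The number with such a peak was 13 at GV, 10 at MII, 4 at 2-cell, 8 at morula and 4 at blastocyst. Such peaks were not counted over all genes, so that no background stands beside these numbers. At 8-cell rho was 0.88 for SF3B5 and 0.86 for SNRPB. Of the CPM summed over the 10 fractions, SF3B5 had 49.8% in F8 to F10 and 9.92% in F3 to F5, SNRPB had 45.5% and 17.9%, and SF3B1 had 61% and 20.9%. Each fraction was a library of its own, and CPM was not weighted by the RNA in a fraction. These percentages and the peaks are therefore relative levels, not the part of an mRNA that lay in those fractions. SNRPB and SNRPD3 peaked in F9 and SRSF6 and LSM1 in F10 of both gradients.

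**Figure D5:**
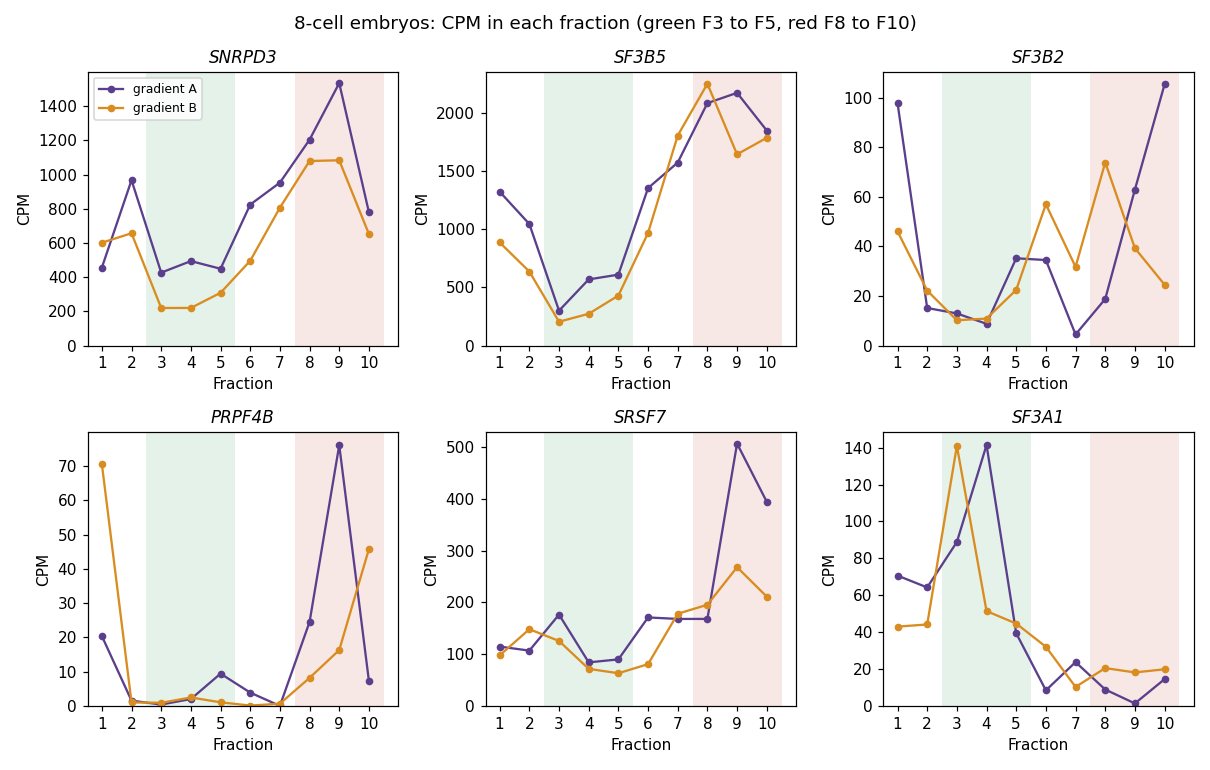
CPM of 6 genes in each of the 10 fractions of 8-cell gradients A and B (lines), with the monosome fractions F3 to F5 shaded green and the polysome fractions F8 to F10 shaded red. SNRPD3 peaked in F9 of both gradients and SF3B5 in F9 of A and F8 of B, and SF3A1 had lower values in F8 to F10 than in F3 to F5.

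Whether the change from 2-cell to 8-cell differed between polysome pools and transcriptomes was tested directly for that step. The change was larger in the pools for 3 genes and smaller for 1 (3.45% and 8.72% of all genes). PRPF39 rose by 4.73 log2 in the pools and by 1.46 in the transcriptomes (log2 difference 3.27 ± 0.88, adjusted p = 0.0175). The call of the difference was lost without 2-cell polysome A or 8-cell polysome A (log2 1.03 to 4.92), and that of the transcriptome change was lost without 2-cell transcriptome A, 2-cell transcriptome C, 8-cell transcriptome B or 8-cell transcriptome C (log2 1.30 to 1.59). SNRPN rose by 5.44 and 3.46 (log2 difference 1.98 ± 0.57, adjusted p = 0.0239). The call was lost without 2-cell polysome B or 2-cell transcriptome B (log2 1.51 to 2.72). SF3B1 rose by 3.08 and 1.76 (log2 difference 1.32 ± 0.35, adjusted p = 0.0154). The call was lost without 2-cell polysome A (log2 1.15 to 1.48). SRSF2 rose by 2.07 in the pools and by 3.49 in the transcriptomes (log2 difference -1.42 ± 0.33, adjusted p = 0.00639), a smaller rise in the pools that was called in every fit without 1 library. The count of 4 became 2 without 2-cell polysome A and 11 without 8-cell polysome B, and with the pool of F9 and F10 in place of F8 to F10 it was 0.

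Genes that work with these proteins were counted by lists. Of 45 tested genes among the other snRNP and core splicing factors, 12 rose and 5 fell in the transcriptomes between 2-cell and 8-cell, where 26.6% of all genes rose and 23.5% fell, so that the share of rises was at the background. In the pools 14 rose and 4 fell, beside 21% and 25.2%. Of 21 hnRNP and TRA2 genes, which encode RNA-binding proteins that work beside or against SR proteins, 12 rose and 0 fell in the transcriptomes and 14 rose and 0 fell in the pools. The largest of these rises was that of TRA2B in both. Of 13 tested genes of snRNP assembly and import, 3 rose and 2 fell in the transcriptomes, with the largest rise in GEMIN7, a protein of the SMN complex. Of 7 tested SR protein kinase and phosphatase genes, 2 rose (CLK1 and PPP1CA) and 2 fell (SRPK2 and SRPK1). Against the transcriptome of its stage, the polysome pool was lower for 18 of the 21 hnRNP and TRA2 genes at MII and for 14 at blastocyst, with 2 and 1 higher. For the other core splicing factors it was higher for 7 and lower for 22 of 45 at MII, beside 30.8% and 26.7% of all genes, and higher for 9 and lower for 10 at blastocyst, near the background of 20% and 20.1%.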

How the data were processed

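Libraries were made by the authors with the Smart-seq V4 and Nextera XT kits, which do not keep strand, and expected counts per gene were estimated with Salmon. They deposited 1 table of these expected counts, not normalized, with 16706 gene symbols and 138 libraries, and 11.7% of the values are not whole. The submitters' processing notes name UMD3.1 and edgeR, whereas the study's methods name another bovine annotation for Salmon, ARS-UCD1.2, so that the build behind the table was not settled and no coordinates are given. The read filters and the Salmon version are not given in the sources used here.

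Columns were matched to samples by name, and 0 of 78 replicate pairs were identical. The 59 genes and all gene lists were chosen with earlier results of these data known, and the lists were written by hand. Any of the 59 genes could be named, except 1 that is counted but not reported here by name, with values at every stage for a set of 17 genes and for the largest called changes in each comparison. Expected counts were rounded to whole numbers, and the counts of F8 to F10, F3 to F5 and F1 to F2 were summed within each gradient. F6 and F7 entered the single-fraction profiles only.

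Tests used the edgeR quasi-likelihood F test (edgeR 4.0.16, limma 3.58.1, R 4.3.3) with TMM scaling and filterByExpr. Of its 2 main models, 1 held 12 polysome pools and 18 transcriptomes (14612 genes), and 1 held 36 pools of free, monosome and polysome fractions (15049 genes). The monosome pools against the transcriptomes were fitted likewise (14545 genes), an alternative added after the data were seen. Tests were two-sided, and the Benjamini-Hochberg adjustment ran over all genes of a fit, with a threshold of 0.05. Changes between stages also needed a fold above 2. The CPM printed beside polysome and monosome comparisons come from the scaling of the second model. Alternatives were DESeq2 1.42.0, the likelihood ratio test, RLE scaling, no filter, a pool of F9 and F10, the replicate letter as a block, a rank trend over F3 to F10 (100000 permutations) and leaving out each library. The fits were tested on simulated data for the 8-cell polysome pool. Against the transcriptome, 1 of 50 genes changed 2-fold, 14 of 46 changed 4-fold and 28 of 46 changed 16-fold were called. Against the monosome pool, 0 of 50, 1 of 48 and 14 of 49 were called, so real differences can go uncalled. Few genes were changed in the simulated data, whereas 28% and 31% of all genes were called in the real 8-cell comparison with the transcriptome. The adjustment was stricter in the simulation for that reason, and its rates are not those of the real tests against the transcriptome. Python 3.11.15 with numpy 2.4.6, pandas 2.3.3, scipy 1.17.1 and matplotlib 3.10.9 made tables and figures.

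Pairing was checked by the correlation across genes of the A minus B differences. It lay between -0.0647 and 0.0078 for polysome pools and transcriptomes. Polysome and monosome pools of a letter come from 1 gradient and so from 1 lysate, with correlations of -0.0856 to 0.17. Values near 0 thus occurred for true pairs too, so the check cannot show whether letters pair polysome pools with transcriptomes.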

Additional observations from a re-analysis of the deposited data

Results flagged for a closer look

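From 2-cell to 8-cell the polysome pools and the transcriptomes were tested for a difference between their changes, and 4 of the 59 genes passed at an adjusted p under 0.05 in edgeR's quasi-likelihood test (3.45% of all genes in the higher and 8.72% in the lower direction). PRPF39 rose by 3.27 log2 more in the pools than in the transcriptomes, SNRPN by 1.98 more and SF3B1 by 1.32 more, while SRSF2 had a difference of -1.42 log2. All 4 went uncalled with the pool of F9 and F10.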

How the results depend on the processing

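Counts of called genes among the 59, with both directions together, stayed within 1.5 times the reported count in the polysome comparisons against the transcriptome and in the 2-cell to 8-cell changes, under every alternative run on them. By direction, the higher count at 2-cell went from 14 to 9 with the pool of F9 and F10 or without 2-cell polysome A, that at morula from 19 to 9 without morula polysome A, and the 5 falls in the pools from 2-cell to 8-cell became 3 with the pool of F9 and F10, without 2-cell polysome B or without 8-cell polysome A. Monosome pools against transcriptomes were fitted once, without alternatives. Exceptions among the other comparisons follow, and their causes were not tested. In the transcriptome change from GV to MII, DESeq2 called 21 in place of 13, and in that from MII to 2-cell the fit with the pool of F9 and F10 called 11 in place of 17. That pool left 0 of the 4 genes whose polysome and transcriptome changes differed from 2-cell to 8-cell. For polysome against monosome pools the likelihood ratio test called 1 at GV, 2 at MII, 15 at 8-cell and 4 at morula, DESeq2 called 3, 7, 16 and 6 there and 2 at blastocyst, RLE scaling called 1 at morula, and no filter on low counts called 3 at 8-cell, in place of 0, 1, 7, 0 and 0. The rank trend over F3 to F10, which treats the fractions of a gradient as independent, called 22, 19, 14, 18, 2 and 5 from GV to blastocyst.

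With the replicate block of the gradient, which pairs the pools of 1 lysate, 1 was called at GV, 11 at 8-cell and 2 at morula, and no other count moved by over 1.5 times. For polysome pools and transcriptomes it was not settled whether the letters pair libraries, and the replicate block is an alternative only. Over all comparisons together the block kept 402 called values of single genes and lost 27.

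Leaving out 1 library at a time gave counts of 2 to 5 for the polysome change from GV to MII, 6 to 10 from MII to 2-cell, 9 to 31 from 8-cell to morula and 3 to 13 from morula to blastocyst, 2 to 11 for the difference of changes, and 0 to 1 at MII, 0 to 7 at 8-cell and 0 to 2 at morula for polysome against monosome pools. Of single values, 5 changed sign. In the morula polysome difference SNRPD2 ranged from -0.30 to 1.73 log2, PRPF6 from -0.14 to 2.57 and LSM4 from -0.029 to 1.88, in the polysome change from 8-cell to morula LSM3 ranged from -0.64 to 2.60, and in that from 2-cell to 8-cell SNRPB2 ranged from -0.13 to 2.03. The lowest value of SNRPB2 came without 8-cell polysome A and those of the others without morula polysome A.

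RLE in place of TMM scaling moved the median log2 difference of all genes between polysome pool and transcriptome from 0.18 to 0.01 at 2-cell, from -0.26 to -0.50 at 8-cell, from 0.00 to -0.11 at morula and from -0.08 to -0.23 at blastocyst. The medians of the 59 genes moved with it, to -1.30, -0.89, -0.32 and -0.50. With 2 gradients per stage, a gene without a call is not shown to be equal in polysome and monosome pools.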
